A study of Drosophila melanogaster with 19 samples.

Results

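Drosophila S2R+ cells depleted of mip40 were set directly against S2R+ cells depleted of mip130, with 2 RNA libraries from each knockdown. These 4 libraries were chosen by their labels from the 9 RNA libraries of the study, which holds 19 samples in all. Each knockdown was made by RNA interference (RNAi), with double-stranded RNA (dsRNA) fed to the cells on each of 4 days at 25 °C, starting at 30 μg/ml and brought to 10 μg/ml. The other RNA libraries came from cells given dsRNA against mip120 (2 libraries), E2F2 (1 library) or GFP (2 libraries, the control treatment). They stayed out of the contrast but counted towards the filter on low values, and the mip120 and GFP pairs entered the estimate of the spread, while the 9 samples of nuclease-digested chromatin and the sample of naked DNA were not analysed here. S2R+ is a cell line of embryonic origin with features of blood cells (hemocytes), and every group carries that background and a dsRNA treatment. Values are FPKM, read pairs counted per length of transcript and per sum of mapped pairs, as deposited by the authors.

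mip40 and mip130 are both subunits of dREAM, an assembly of retinoblastoma-family proteins, E2F2, DP, Myb and Myb-interacting proteins that sits at many promoters. The complex is known for keeping genes of other cell types and of the germ line silent in dividing cells, and Myb within it is known for the activation of genes of the G2 phase and mitosis. mip130 is the Drosophila relative of human LIN9, and mip40 that of human LIN37. Whether loss of these subunits leaves the same transcripts is the question that a direct comparison addresses.

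FPKM summed to 709629 and 662194 in the mip40 RNAi libraries and to 689556 and 772092 in the mip130 RNAi libraries, and sequencing depth is unknown because the values hold no counts. The most abundant entry, an unannotated transcript of XHet (start 189620), held 4.29% and 5.13% of these sums in mip40 RNAi, against 7.39% and 16.1% in mip130 RNAi. The library with the largest share was mip130 replicate 2. Its part in the results was not tested, and counts without that library are given beside them. Replicates correlated at Pearson r = 0.976 in mip40 RNAi and 0.967 in mip130 RNAi across 7835 genes, which are not independent replicates. Because no label describes the replicates as separate cultures, every p-value below reflects the spread between these libraries alone, which may be technical.

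Hemocyte genes were expressed in both knockdowns, in bulk samples where fewer cells of a type and less RNA per cell cannot be told apart. The blood-cell GATA factor srp stood at 117 and 116 FPKM in mip40 RNAi, against 83.4 and 78.7 in mip130 RNAi, and the peroxidasin gene Pxn at 28.7 and 28.9, against 24.8 and 26.3. Of 36 hemocyte markers 25 were tested, while Hml and nimC1, also hemocyte markers, were below the filter on low values. None of 20 gut markers passed that filter. Their summed level was 0.174 and 0.212 FPKM in mip40 RNAi, against 0.346 and 0.328 in mip130 RNAi, and 13 of them were listed at 0 in all 4 libraries.

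Each knockdown lowered its own target. mip40 (2R, start 15179708 in the table, for which no source used here gives a genome build) stood at 1.45 and 1.12 FPKM in mip40 RNAi, against 51.2 and 55.1 in mip130 RNAi and 34.0 and 31.1 in GFP cells. mip130 (X, start 1802246) stood at 50.4 and 47.1 FPKM in mip40 RNAi, against 5.00 and 4.46 in mip130 RNAi and 27.7 and 29.8 in GFP cells. Each gene was thus lowest in its own knockdown and higher in the other knockdown than in GFP cells. The dsRNA matches these transcripts, so their differences check the labels and are no finding.

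Of 7835 genes tested, 1956 differed between the knockdowns (25.0%, limma on log2(FPKM + 1), Benjamini-Hochberg adjusted p under 0.05). They were evenly split, with 994 higher in mip40 RNAi (12.7%) and 962 lower (12.3%). Most differences were small. The median size among called genes was 0.44 on the log2(FPKM + 1) scale, 1215 of them were under 0.5, and the group means correlated at r = 0.971 across genes. A difference of at least 1 was found for 38 genes higher in mip40 RNAi (0.485%) and for 126 genes lower (1.61%), so more of the large differences lay on the side of lower levels in mip40 RNAi. With a pseudocount of 4, which shrinks differences of low genes, these counts were 28 higher and 40 lower. Some of these genes were listed at 0 throughout a group, which can be a failed estimate. Without such genes, in a fit chosen after seeing the data, the counts were 26 higher and 99 lower. In every called gene the 2 mip40 libraries lay on one side of the 2 mip130 libraries, which was also true of 66.4% of all genes tested.

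The number of calls rested on single libraries. It was 334 without mip40 replicate 1 and 1077 without replicate 2, and 679 without mip130 replicate 1 and 198 without replicate 2. The share of calls that were higher in mip40 RNAi was 50.8% with all libraries, 33.5% without mip40 replicate 1 and 35.9% without mip130 replicate 2. The large differences depended less on 1 library, with 80 to 118 genes lower and 25 to 49 higher by at least 1 when 1 of these 4 libraries was left out. Among genes with such a difference, 77 lower and 21 higher were called in all 8 fits that left out 1 library.

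**Figure D1:**
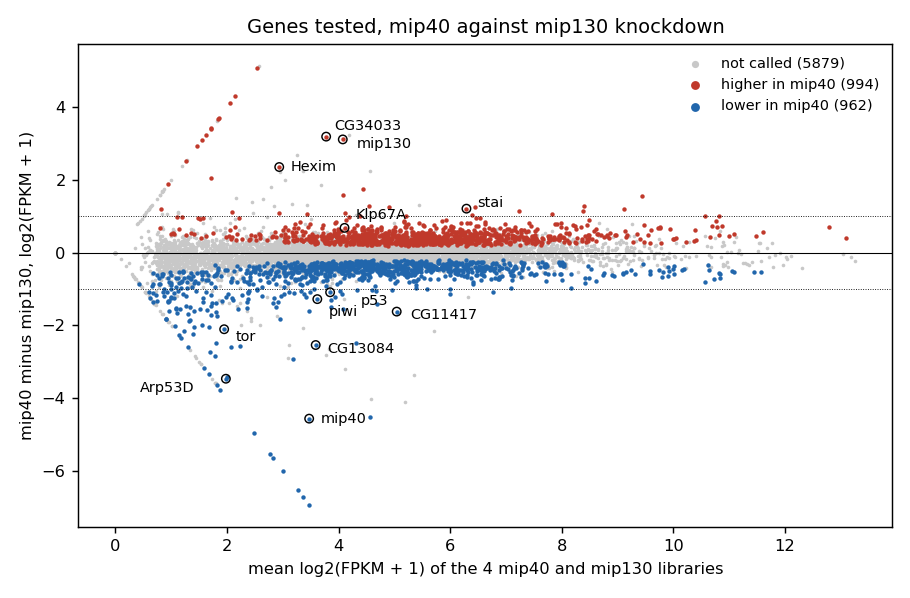
Difference between mip40 and mip130 RNAi (log2(FPKM + 1), y axis) against the mean level over the 4 libraries (x axis), 1 point per gene tested, with calls in colour, dotted lines at differences of 1 and -1, and straight rows of points where 1 group is listed at 0. The 994 genes higher and the 962 lower in mip40 RNAi lie mostly close to 0, with 126 genes at or below -1 and 38 at or above 1.

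GFP cells, which are not in the contrast, were nearer to mip40 RNAi for most called genes. Of the 962 genes lower in mip40 RNAi, 526 were lower still in GFP cells than in either knockdown, 401 had a GFP level between the knockdowns, and 35 were highest in GFP cells. Of the 994 genes higher in mip40 RNAi, 405 were highest in GFP cells, 563 had a GFP level in between, and 26 were lowest there. The GFP mean lay nearer to mip40 RNAi than to mip130 RNAi for 827 of the 994 genes (83.2%) and for 815 of the 962 (84.7%). Among the 38 genes higher by at least 1 it was nearer to mip40 RNAi for 24 and to mip130 RNAi for 14. Among the 126 genes lower by at least 1 it was nearer to mip40 RNAi for 115, and 85 of the 126 were under 1 FPKM in both GFP libraries. These positions, taken on means of log2(FPKM + 1), are a description with no test.

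Several genes with large differences were nearly absent from GFP cells, present in mip130 RNAi and low in mip40 RNAi. Arp53D (2R, start 12661675), an actin-related gene of the testis, stood at 0.256 and 0.120 FPKM in mip40 RNAi, against 12.5 and 11.8 in mip130 RNAi, and was listed at 0 in both GFP libraries. Its level in mip40 RNAi was 1.55% of that in mip130 RNAi (difference -3.47 ± 0.12 on the log2(FPKM + 1) scale, SE, limma adjusted p = 2e-05). On transcripts of known structure alone the difference was -2.02 (limma adjusted p = 0.031). In the other knockdowns Arp53D stood at 19.9 and 24.0 FPKM (mip120 RNAi) and 14.5 FPKM (E2F2 RNAi), so mip40 RNAi was the only knockdown of the 4 with under 1 FPKM. CG9427 (3R, start 5452652) showed the same order, with 0.131 and 0.318 FPKM in mip40 RNAi, against 11.0 and 13.1 in mip130 RNAi and 0 and 0.339 in GFP cells.

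Further genes followed. CG2887 (X, start 10372721) stood at 2.40 and 2.18 FPKM in mip40 RNAi, against 23.4 and 24.9 in mip130 RNAi and 0 and 0.142 in GFP cells. For this gene both knockdowns lay above GFP cells, and mip130 RNAi was 10.6 times as high as mip40 RNAi (-2.94 ± 0.10, limma adjusted p = 1.7e-05). CG9084, CG5250 and CG9406 lay between 0.157 and 0.772 FPKM in mip40 RNAi, between 7.0 and 10.0 in mip130 RNAi and at 0.115 or below in GFP cells. CG13084 (2L, start 19484930) differed from these in being present in GFP cells at 3.32 and 3.35 FPKM. It stood at 3.97 and 4.01 FPKM in mip40 RNAi, close to that level, and at 28.4 and 27.8 in mip130 RNAi (-2.54 ± 0.07, limma adjusted p = 5.1e-06). All of these genes were called under each of the alternatives in which they were tested, leaving out any 1 of the 8 paired libraries included. CG2887 was not tested on transcripts of known structure alone.

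The next 5 genes were picked after their values were seen. tor, the receptor tyrosine kinase that patterns the ends of the embryo, stood at 0.829 and 0.895 FPKM in mip40 RNAi, against 7.52 and 6.55 in mip130 RNAi and 0 and 0.0560 in GFP cells. Gr63a, part of the carbon dioxide receptor of olfactory neurons, stood at 0 and 0.105 FPKM in mip40 RNAi, against 2.89 and 3.58 in mip130 RNAi, and at 0.0463 and 0.0423 in GFP cells. The opsin gene Rh4 stood at 0.721 and 0.421 FPKM in mip40 RNAi, against 6.10 and 4.96 in mip130 RNAi. In each case both mip40 libraries lay below both mip130 libraries, and 66.4% of all genes tested had these groups apart. The mip40 means were 0.862 FPKM for tor, 0.0525 for Gr63a and 0.571 for Rh4. In GFP cells the means were 0.0280, 0.0443 and 0.0746 FPKM in the same order. Rh4 was not tested on transcripts of known structure alone, and it overlaps CG13029, sina and sinah in the reference annotation, so its level is uncertain. The channel genes pain and pyx, both of the TRP family and known for sensing heat, stood at 0.665 to 1.15 FPKM in mip40 RNAi, against 3.71 to 5.20 in mip130 RNAi. tor reached 1 FPKM in the mip130 libraries alone, so it could pass the filter only by being high there. Only library values and means are therefore given for tor. The differences of the other genes ran from -2.06 for Rh4 to -1.54 for pyx (limma adjusted p between 0.00082 and 0.0015).

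Several germ-line genes were graded, with mip40 RNAi between GFP cells and mip130 RNAi. Of 39 germline and piRNA genes tested, 11 were lower in mip40 RNAi (28.2%, against 12.3% of all genes) and 5 were higher (12.8%, against 12.7%), with a median difference of -0.09, against -0.02 over all genes. For all 11 lower genes the GFP mean was nearer to mip40 RNAi, which was also true of 84.7% of all genes called lower. piwi (2L, start 10987416), which binds piRNAs and silences transposons, stood at 6.66 and 7.13 FPKM in mip40 RNAi, against 17.2 and 19.2 in mip130 RNAi and 0.585 and 0.612 in GFP cells. The piwi level of mip40 RNAi was thus 38% of that of mip130 RNAi and above both GFP libraries (-1.28 ± 0.09, limma adjusted p = 0.00065). nos (3R, start 14982960), a translational repressor of germ cells named here after its values were seen, stood at 11.3 and 9.22 FPKM in mip40 RNAi, against 21.4 and 23.6 in mip130 RNAi and 0.334 and 0.357 in GFP cells (-1.06 ± 0.11, limma adjusted p = 0.0028). zpg (3L, start 6599132), which encodes a gap junction protein of germ cells, stood at 1.91 and 2.82 FPKM in mip40 RNAi, against 7.31 and 6.96 in mip130 RNAi and 0.421 and 0.343 in GFP cells. piwi, nos and zpg were called under every alternative. In the reference annotation piwi overlaps SCAR, nos overlaps CG17134 and CG6508, and zpg overlaps Rexo5.

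vas, the RNA helicase that marks germ cells, overlaps solo and vig in the reference annotation, so its level is uncertain. vas was near background in mip40 RNAi. It stood at 0.260 and 0.441 FPKM there, against 1.90 and 2.55 in mip130 RNAi and 0.114 and 0.0261 in GFP cells (-1.25 ± 0.18, limma adjusted p = 0.0093). Its adjusted p was 0.051 without mip40 replicate 1 and 0.062 without mip130 replicate 2. bam, a switch to germ-cell differentiation, and likewise picked after its values were seen, lay closer in the knockdowns, with 7.48 and 6.56 FPKM in mip40 RNAi, against 9.31 and 10.1 in mip130 RNAi and 1.43 in each GFP library. It was not called without any 1 of the 4 libraries of the contrast (limma adjusted p up to 0.12). osk, which directs assembly of the germ plasm and was among the 11, had a difference of -0.81, but 0.27 on transcripts of known structure alone (limma adjusted p = 0.73). The count of lower germline genes ran from 4 without mip130 replicate 2 to 9 without mip40 replicate 2.

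The 5 germline genes higher in mip40 RNAi were squ, bgcn, armi, mei-P26 and CG13472, and the count was 1 without mip40 replicate 1 or either mip130 library and 4 without mip40 replicate 2. squ (2L, start 16680570), a piRNA pathway gene, stood at 25.9 and 23.0 FPKM in mip40 RNAi, against 11.4 and 10.5 in mip130 RNAi and 35.9 and 37.0 in GFP cells. Here the order was turned round, with mip40 RNAi again between the other groups (1.09 ± 0.08, limma adjusted p = 0.00071) and the call kept under every alternative. squ overlaps grp in the reference annotation, and reads of overlapping genes may not be told apart. bgcn stood at 933 and 754 FPKM in mip40 RNAi, against 372 and 355 in mip130 RNAi (1.20 ± 0.22, limma adjusted p = 0.014, and from 0.057 to 0.085 without mip40 replicate 1 or either mip130 library). Its difference was -0.09 on transcripts of known structure alone, and it overlaps Pym, so its level is uncertain.

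Among genes of meiosis, CG8316, cona and c(2)M had the same order of groups as piwi. Of 19 meiosis and synaptonemal complex genes tested, 4 were lower in mip40 RNAi (21.1%, against 12.3% of all genes) and 1, tef, was higher (5.26%, against 12.7%), with a median difference of -0.30. CG8316 (X, start 17526053), known as corolla and part of the synaptonemal complex that joins paired chromosomes, stood at 8.22 and 7.26 FPKM in mip40 RNAi, against 23.7 and 23.0 in mip130 RNAi and 0.397 and 0.576 in GFP cells. cona (3R, start 14211550), a partner of that complex, stood at 2.80 and 2.47 FPKM in mip40 RNAi, against 6.68 and 6.54 in mip130 RNAi and 0.183 and 0.332 in GFP cells. c(2)M (2L, start 16303264), a kleisin-related component, stood at 2.47 and 2.41 FPKM in mip40 RNAi, against 4.95 and 5.10 in mip130 RNAi and 0.254 and 0.284 in GFP cells. In the reference annotation cona overlaps Vha100-4 and c(2)M overlaps CG5861. All 3 genes had mip40 RNAi above GFP cells and at 33.1% to 48.6% of mip130 RNAi. Their differences were -1.48 ± 0.09, -1.07 ± 0.12 and -0.81 ± 0.10 (limma adjusted p = 0.00044, 0.0045 and 0.0068), and each was called under every alternative.

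Among the 34 testis-specific genes measured, 11 passed the filter, which a gene could do through any group in which it was high. Of these, 5 were lower in mip40 RNAi (Arp53D, Prosbeta2R2, Taf12L, achi and topi, 45.5% against 12.3% of all genes) and none was higher. Taf12L reached 1 FPKM in the mip130 libraries alone, so it could pass the filter only by being high there, and nothing is read from this share. A further 15 of the 34 were listed at 0 in all 4 libraries. topi, a gene of the meiotic arrest class picked after its values were seen, stood at 2.61 and 2.72 FPKM in mip40 RNAi, against 4.23 and 4.24 in mip130 RNAi and 0.970 and 0.717 in GFP cells. achi is nearly identical to its neighbour vis, and its level is uncertain. Of the 5, Arp53D kept its call without any 1 of the 4 libraries of the contrast, and the count was 1 without either mip130 library, 2 without mip40 replicate 1 and 4 without mip40 replicate 2.

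**Figure D2:**
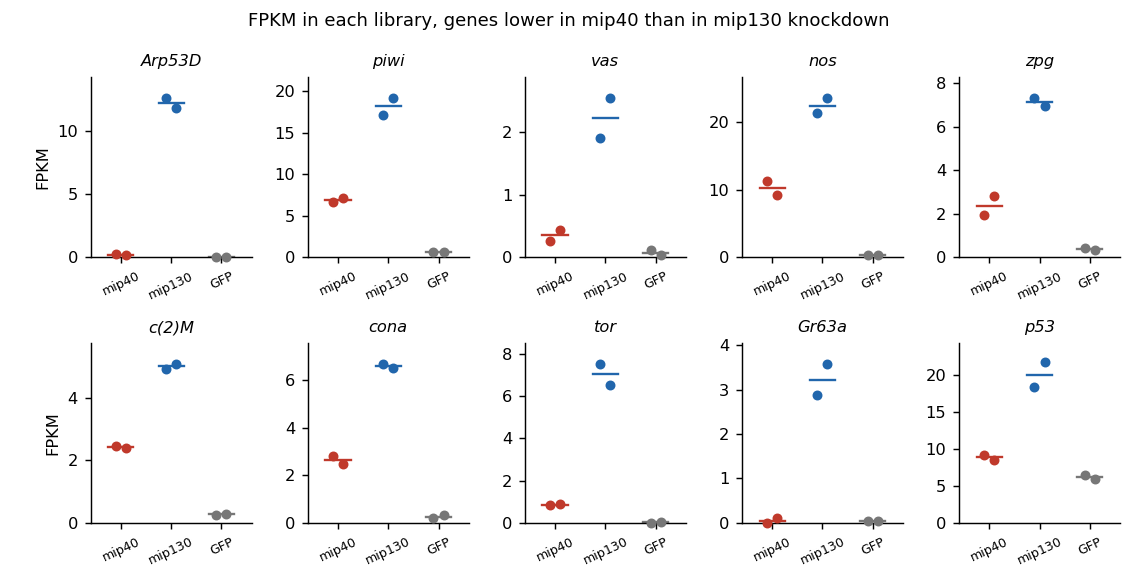
FPKM of 10 genes lower in mip40 RNAi (1 panel per gene, linear axis from 0), with points for the 2 libraries of each group and a bar at their mean, in the order mip40 RNAi, mip130 RNAi and GFP cells. In each panel both mip130 libraries lie above both mip40 libraries. In every panel but that of Gr63a both mip40 libraries also lie above both GFP libraries, though Arp53D, vas and tor stay under 1 FPKM in mip40 RNAi.

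p53 and the embryonic linker histone gene were lower as well. p53 (3R, start 18879227), the activator of apoptosis after DNA damage, stood at 9.23 and 8.54 FPKM in mip40 RNAi, against 18.4 and 21.8 in mip130 RNAi and 6.54 and 5.89 in GFP cells (-1.09 ± 0.10, limma adjusted p = 0.0018). It was called under every alternative. Of 28 apoptosis and p53 genes tested, 6 were lower in mip40 RNAi (p53, Irbp, Ku80, nbs, Ark and Iap2, 21.4% against 12.3% of all genes) and 2 were higher (wgn and debcl, 7.14% against 12.7%), with a median of -0.07. The repair genes Irbp and Ku80 encode the Ku proteins that hold broken DNA ends, and Irbp stood at 30.7 and 29.6 FPKM in mip40 RNAi, against 39.5 and 42.2 in mip130 RNAi (limma adjusted p = 0.013, and 0.058 without mip40 replicate 1 and 0.084 without mip130 replicate 2). The count of lower genes was 1 without mip40 replicate 1 or mip130 replicate 2, and 3 without either of the other libraries of the contrast. CG3509 (3R, start 10489165), known as BigH1, the embryonic and germline linker histone, stood at 1.11 and 0.554 FPKM in mip40 RNAi, against 5.38 and 4.54 in mip130 RNAi and 0 and 0.0496 in GFP cells (-1.71 ± 0.18, limma adjusted p = 0.0034).

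Hexim, which starts at 10485163 on 3R near CG3509 and encodes an inhibitor of the elongation factor P-TEFb, went the other way. It stood at 16.3 and 16.4 FPKM in mip40 RNAi, against 2.52 and 2.25 in mip130 RNAi and 20.7 and 19.9 in GFP cells. The mip40 RNAi level was 6.86 times that of mip130 RNAi and below both GFP libraries (2.36 ± 0.08, limma adjusted p = 1.7e-05). The table lists 2 Hexim transcripts. One stood at 15.7 and 16.4 FPKM in mip40 RNAi, against 2.52 and 2.25 in mip130 RNAi and 15.4 and 15 in GFP cells. The other stood at 0.590 and 0 FPKM in mip40 RNAi, at under 0.001 FPKM in mip130 RNAi, and at 5.34 and 4.91 in GFP cells. The difference between the knockdowns thus lay in the more abundant transcript, while the minor one was low in both.

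Other genes higher in mip40 RNAi by at least 1 had mixed positions in GFP cells. stai (2L, start 6100377), which encodes the microtubule-destabilizing protein stathmin, stood at 124 and 113 FPKM in mip40 RNAi, against 55 and 46.4 in mip130 RNAi and 128 and 135 in GFP cells (1.21 ± 0.10, limma adjusted p = 0.0014). Syx1A (3R, start 19931465), a syntaxin of membrane fusion, stood at 140 and 129 FPKM in mip40 RNAi, against 55.9 and 55.1 in mip130 RNAi and 114 and 155 in GFP cells. It overlaps eIF4EHP in the reference annotation. Both genes were near the GFP level in mip40 RNAi and lower in mip130 RNAi, and both were called under every alternative. CG34033 (2R, start 5708068) was different, at 37.0 and 44.4 FPKM in mip40 RNAi, against 4.24 and 2.92 in mip130 RNAi and 5.83 and 4.92 in GFP cells (3.20 ± 0.17, limma adjusted p = 0.0002). CG42353 (X, start 15998945) stood at 5.32 and 6.06 FPKM in mip40 RNAi, against 0.487 and 0.734 in mip130 RNAi and 0.600 and 0.506 in GFP cells. For these genes mip40 RNAi stood apart from both mip130 RNAi and GFP cells. CG42353 also stood at 4.05 FPKM in the E2F2 RNAi library and at 2.10 and 1.125 FPKM in mip120 RNAi. It was not tested on transcripts of known structure alone and overlaps CG42354 in the reference annotation, while CG34033 overlaps CG30001. CG42353 was the one gene higher by at least 1 whose GFP mean lay below both knockdowns. CG14561 (3L, start 22059007), picked after its values were seen, stood at 30.0 and 26.6 FPKM in mip40 RNAi, against 8.33 and 9.06 in mip130 RNAi and 19.5 and 18.4 in GFP cells.

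CG11417 (X, start 1248076) was the reverse case, lower in mip40 RNAi with both other groups high. It stood at 17.9 and 17.7 FPKM in mip40 RNAi, against 55.7 and 58.0 in mip130 RNAi and 69.5 and 72.9 in GFP cells (-1.62 ± 0.06, limma adjusted p = 4.4e-05). Of the 126 genes lower by at least 1 it was 1 of 3 whose GFP mean lay above both knockdowns, the others being the small RNAs snoRNA:Dek-a and snoRNA:Psi28S-2996. The mitochondrial transcription factor gene mTerf3 was also among the largest differences, at 52.3 and 28.4 FPKM in mip40 RNAi, against 11.4 and 10.3 in mip130 RNAi. Its mip40 libraries differed widely from each other (SD 16.9 FPKM around a mean of 40.3). The call was lost without mip40 replicate 1, mip130 replicate 1 or mip130 replicate 2.

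Some genes were listed at 0 throughout a group, which in a file of FPKM can be a failed estimate. For those at 0 in both mip40 or both mip130 libraries, only library values are given. Arp53D, at 0 in both GFP libraries, was given above with its difference, and its GFP zeros can be failed estimates too. Gprk2, a kinase of G protein-coupled receptors, stood at 33.1 and 32.8 FPKM in mip40 RNAi and was listed at 0 in both mip130 libraries, both mip120 libraries and both GFP libraries. The single E2F2 RNAi library held 33.9 FPKM. Its neighbours Gcn2, an eIF2 kinase, and CG11337, which encodes a polynucleotide phosphorylase, had the same pattern, with 11.9 and 11.9 FPKM and 8.64 and 10.9 FPKM in mip40 RNAi. These 3 genes start between 27221382 and 27230967 on 3R and overlap in the reference annotation, so they are not independent cases. CG3726 (18.3 and 19.1 FPKM in mip40 RNAi) and the adenylyl cyclase gene rut (2.78 and 2.63 FPKM), both on X, shared that pattern of zeros. In the opposite direction, CR43497 and CG42259 were listed at 0 in both mip40 libraries, and stood at 38.6 and 54.8 FPKM and at 16.1 and 9.87 FPKM in mip130 RNAi. The small heat shock gene Hsp26 was listed at 0 in both mip40 libraries and both GFP libraries, and stood at 2.96 and 5.67 FPKM in mip130 RNAi. In all, 96 tested genes were listed at 0 in both libraries of at least 1 of the mip40, mip130, mip120 and GFP groups and at 1 FPKM or more in both libraries of another of these groups, and 42 of them were among the 1956 calls.

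**Figure D3:**
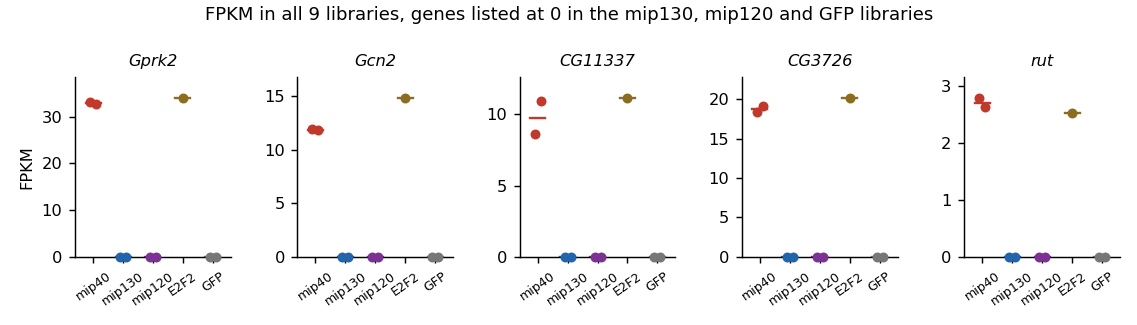
FPKM of 5 genes in all 9 RNA libraries (1 panel per gene, linear axis from 0), with points for libraries and bars for group means, in the order mip40, mip130, mip120, E2F2 and GFP RNAi. The genes are present in the 2 mip40 libraries and the single E2F2 library and listed at 0 in the 6 others.

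Kinesins, the motors of spindle microtubules and cargo, were called in the higher direction alone. Of 19 kinesin genes tested, 9 were higher in mip40 RNAi (47.4%, against 12.7% of all genes) and none was lower. The median difference was 0.24. For all 9 the GFP mean was nearer to mip40 RNAi, which was also true of 83.2% of all genes called higher. Klp67A (3L, start 9360051), a kinesin that sets spindle length, stood at 20.5 and 21.2 FPKM in mip40 RNAi, against 12.1 and 13.1 in mip130 RNAi and 27.5 and 24.8 in GFP cells (0.68 ± 0.07, limma adjusted p = 0.0037). Klp61F (3L, start 1245910), the kinesin-5 that pushes spindle poles apart, stood at 54.1 and 56.1 FPKM in mip40 RNAi, against 37.0 and 40.2 in mip130 RNAi and 63.2 and 64.1 in GFP cells (0.50 ± 0.06, limma adjusted p = 0.006). Both were in between the other groups and called under every alternative. pav, the kinesin of cytokinesis, stood at 32.7 and 31.1 FPKM in mip40 RNAi, against 21.5 and 23.2 in mip130 RNAi and 48.8 and 44.0 in GFP cells, and its limma adjusted p was 0.0093, or 0.053 without mip40 replicate 1. ncd, the kinesin-14, was higher at 93.5 and 89.0 FPKM, against 55.8 and 61.3 in mip130 RNAi, but its difference was -0.03 on transcripts of known structure alone. The remaining kinesins called were Klp3A, Klp10A, Klp64D, cmet and Khc. The count of higher kinesins was 3 without mip40 replicate 1, 7 without mip40 replicate 2, 5 without mip130 replicate 1 and 4 without mip130 replicate 2, and the median was 0.13 without mip40 replicate 1 and 0.0954 on transcripts of known structure alone.

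Of the wider list of 85 G2 and mitosis genes, which holds kinesins too, 27 were higher in mip40 RNAi (31.8%, against 12.7% of all genes). A further 7 were lower (8.24%, against 12.3%), and the median was 0.11. scra (2R, start 3477624), the anillin that organizes the cleavage furrow, stood at 126 and 117 FPKM in mip40 RNAi, against 78.9 and 76.0 in mip130 RNAi and 135 and 143 in GFP cells (0.64 ± 0.06, limma adjusted p = 0.0028), and was called under every alternative. Cyclin genes CycA and CycB, the kinase polo, and the condensin genes SMC2, barr and glu were also among the 27. The 7 lower genes included the kinetochore gene Nnf1b, the centriole kinase SAK, and the augmin genes dgt2, dgt6 and wac. Nnf1b stood at 18.1 and 17.3 FPKM in mip40 RNAi, against 23.8 and 33.1 in mip130 RNAi and 11.5 and 13.4 in GFP cells, and was not called without either mip40 library or mip130 replicate 2 (limma adjusted p from 0.087 to 0.094). The count of higher genes was 5 without mip40 replicate 1, 22 without replicate 2, 11 without mip130 replicate 1 and 5 without replicate 2, and that of lower genes was 0, 2, 1 and 0 in the same order.

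Of 14 genes tested from a list of regulators of G1 and S-phase entry, 5 were higher in mip40 RNAi (35.7%, against 12.7% of all genes). None was lower. The median was 0.17. Among the 5, stg is also counted with the G2 and mitosis genes, and CycE with the replication genes. The difference of stg was 0.30, but -0.63 on transcripts of known structure alone (limma adjusted p = 0.35). E2f, the activating E2F gene, stood at 186 and 171 FPKM in mip40 RNAi, against 131 and 130 in mip130 RNAi and 166 and 187 in GFP cells. rap, the fizzy-related activator of the anaphase-promoting complex, stood at 10.3 and 9.05 FPKM in mip40 RNAi, against 6.39 and 5.47 in mip130 RNAi. The count was 0 without mip40 replicate 1 or mip130 replicate 2, 4 without mip40 replicate 2 and 1 without mip130 replicate 1. Of 48 replication genes, 8 were higher (16.7%, against 12.7% of all genes) and 4 were lower (8.33%, against 12.3%). Their median was -0.02, equal to that of all genes. Gnf1, of the clamp loader, stood at 49.6 and 43.5 FPKM in mip40 RNAi, against 28.4 and 27.6 in mip130 RNAi, and Psf3, of the GINS complex, stood at 33.5 and 32.6, against 45.9 and 49.9. The count of higher replication genes was 1, 7 and 2 without mip40 replicates 1 and 2 and mip130 replicate 1, in that order. Without mip130 replicate 2 no replication gene was called, and the limma adjusted p was 0.059 for Gnf1 and 0.077 for Psf3. It was 0.056 for Psf3 without mip40 replicate 1.

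**Figure D4:**
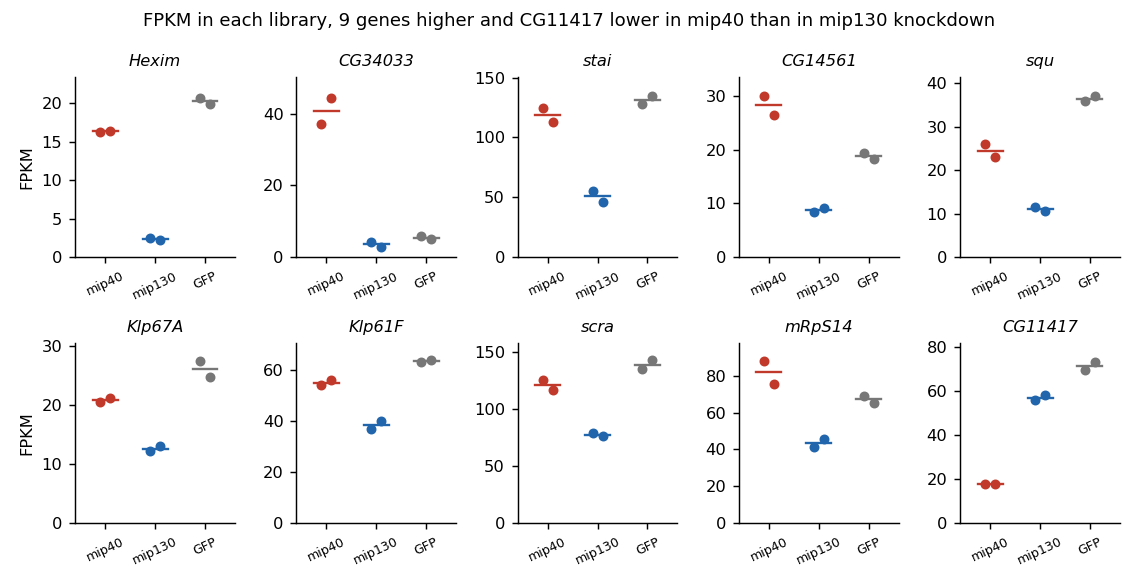
FPKM of 9 genes higher in mip40 RNAi and of CG11417, which was lower (1 panel per gene, linear axis from 0), with points for the 2 libraries of each group and a bar at their mean, in the order mip40 RNAi, mip130 RNAi and GFP cells. Hexim, stai, squ, Klp67A, Klp61F and scra have mip40 means below but nearer to the GFP means, while CG34033, CG14561 and mRpS14 have mip40 means above both other groups.

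The dREAM subunits themselves were divided. Of 12 subunit genes tested, 3 were higher in mip40 RNAi and 3 were lower (25.0% each, against 12.7% and 12.3% of all genes). These counts include the 2 targeted genes. Myb (X, start 15751854), the DNA-binding activator, stood at 130 and 116 FPKM in mip40 RNAi, against 85.5 and 86.1 in mip130 RNAi and 120 and 133 in GFP cells (0.51 ± 0.08, limma adjusted p = 0.01). Rbf (X, start 695490), a retinoblastoma-family repressor, stood at 30.6 and 29.6 FPKM in mip40 RNAi, against 39.8 and 41.4 in mip130 RNAi and 27.6 and 25.2 in GFP cells (-0.42 ± 0.07, limma adjusted p = 0.011). For both genes mip40 RNAi lay near GFP cells. The limma adjusted p of Myb was 0.051 without mip40 replicate 1 and 0.068 without mip130 replicate 2, and that of Rbf was 0.051 and 0.073.

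Rbf2, the other retinoblastoma-family gene, stood at 6.77 and 7.41 FPKM in mip40 RNAi, against 8.98 and 10.7 in mip130 RNAi (-0.42 ± 0.11, limma adjusted p = 0.038), and the call was lost without any 1 of the 4 libraries of the contrast (0.054 to 0.18). l(3)mbt, an MBT-domain repressor, stood at 23.7 and 26.2 FPKM in mip40 RNAi, against 19.4 and 19.1 in mip130 RNAi (0.35 ± 0.07, limma adjusted p = 0.017). On transcripts of known structure alone its difference was 1.975, much larger but not called (limma adjusted p = 0.083). The call was also lost without mip40 replicate 2 or either mip130 library. The subunit genes mip120, E2f2, Dp, Caf1, lin-52 and Rpd3 were not called. mip120, a subunit targeted in another arm of the study, stood at 76.2 and 87.0 FPKM in mip40 RNAi, against 72.2 and 82.2 in mip130 RNAi (0.08 ± 0.10), and at 52.5 and 45.6 in GFP cells. E2f2 stood at 28.3 and 23.4 FPKM in mip40 RNAi, against 30.8 and 32.1 in mip130 RNAi (-0.28 ± 0.10, limma adjusted p = 0.072).

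Chromatin remodelling and insulator genes had the highest share of calls on the higher side after the kinesins, among the lists with at least 10 members tested. Of 43 genes tested, 20 were higher in mip40 RNAi (46.5%, against 12.7% of all genes). The 2 lower genes were Chd3 and Hdac3 (4.65%, against 12.3%), and the median was 0.25. The remodeller subunit gene mor stood at 109 and 103.9 FPKM in mip40 RNAi, against 75.2 and 72.2 in mip130 RNAi and 100 and 112 in GFP cells, although its difference was -0.05 on transcripts of known structure alone. Acf1, of the ACF remodeller, stood at 39.0 and 38.1 FPKM in mip40 RNAi, against 27.2 and 27.0 in mip130 RNAi and 28.4 and 33.8 in GFP cells. Cp190, a gene for an insulator protein, stood at 103.6 and 88.9 FPKM in mip40 RNAi, against 67.1 and 69.4 in mip130 RNAi and 96.0 and 101 in GFP cells. The limma adjusted p of mor was 0.051 without mip40 replicate 1 and 0.066 without mip130 replicate 2. For Acf1 and Cp190 it lay between 0.055 and 0.083 without mip40 replicate 1 or either mip130 library. The count of higher genes was 1 without mip40 replicate 1, 11 without replicate 2, 4 without mip130 replicate 1 and 0 without replicate 2, while the median stayed between 0.20 and 0.28. Of 25 Polycomb group and MBT genes, 3 were higher (Jarid2, l(3)mbt and pho), a share of 12% against 12.7% of all genes, and none was lower. Ssrp, a subunit of the histone chaperone FACT, stood at 238 and 215 FPKM in mip40 RNAi, against 132 and 125 in mip130 RNAi and 164 and 190 in GFP cells, and its limma adjusted p of 0.0077 was 0.051 without mip40 replicate 1 and 0.061 without mip130 replicate 2.

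The genes of cytosolic ribosomal proteins held calls on the lower side alone. Of 87 genes tested, 29 were lower in mip40 RNAi (33.3%, against 12.3% of all genes), none was higher, and 75 had a difference below 0, with a median of -0.33. Over all 93 genes of the list, 6 of them not tested, FPKM summed to 148105 and 131971 in mip40 RNAi. The sums were 162900 and 167077 in mip130 RNAi and 128883 and 116088 in GFP cells. For all 29 called genes the GFP mean was nearer to mip40 RNAi, as it was for 84.7% of all genes called lower. RpS9 (3L, start 9504631), a protein of the small subunit, stood at 262 and 248 FPKM in mip40 RNAi, against 429 and 476 in mip130 RNAi and 264 and 198 in GFP cells (-0.83 ± 0.17, limma adjusted p = 0.019, and 0.059 to 0.11 without any 1 of the 4 libraries of the contrast). RpLP1 (2L, start 419952), of the stalk of the large subunit, stood at 1212 and 1103 FPKM in mip40 RNAi, against 1943 and 2075 in mip130 RNAi (-0.80 ± 0.13, limma adjusted p = 0.012, and 0.079 without mip130 replicate 2 and 0.051 without mip40 replicate 1). The count of lower genes was 0 without mip40 replicate 1, 4 without mip40 replicate 2, 1 without mip130 replicate 1 and 0 without mip130 replicate 2, while the median stayed between -0.34 and -0.26. Some ribosomal protein genes have another gene copy or host small RNAs, and reads of these may not be told apart.

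Genes of mitochondrial ribosomal proteins held calls in both directions. Of 75 genes tested, 9 were higher in mip40 RNAi (12%, against 12.7% of all genes) and 4 were lower (5.33%, against 12.3%), with a median of -0.07. mRpS14 (X, start 19373950) stood at 88.4 and 75.5 FPKM in mip40 RNAi, against 41.2 and 45.8 in mip130 RNAi and 69.2 and 65.6 in GFP cells (0.90 ± 0.09, limma adjusted p = 0.0029). mRpL34 (2R, start 11986498) stood at 65.8 and 69.5 FPKM in mip40 RNAi, against 36.8 and 42.2 in mip130 RNAi and 74.0 and 72.6 in GFP cells (0.76 ± 0.10, limma adjusted p = 0.0073). Both were called under every alternative, and both overlap other genes in the reference annotation. mRpL55 and mRpS16 were lower, at 91.2 and 103.7 FPKM and at 28.8 and 33.1 FPKM in mip40 RNAi, against 175 and 208 FPKM and 58.1 and 50.3 FPKM in mip130 RNAi. The call of mRpL55 was lost without any 1 of the 4 libraries (limma adjusted p from 0.059 to 0.12). That of mRpS16 was lost without mip40 replicate 1 (0.068), mip130 replicate 1 (0.056) or mip130 replicate 2 (0.056). The count of higher genes was 3, 7, 4 and 2 without mip40 replicates 1 and 2 and mip130 replicates 1 and 2, in that order, and no gene was lower without mip40 replicate 1 or mip130 replicate 2.

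Glycolysis and proteasome genes also held calls in both directions. Of 17 glycolysis genes, 5 were lower in mip40 RNAi (Ald, Pfk, Pgi, Pglym78 and Tpi, 29.4% against 12.3% of all genes) and 3 were higher (Hex-A, Pdk and Pepck, 17.6% against 12.7%), with a median of -0.21. Pfk, the phosphofructokinase gene, stood at 20.2 and 19.4 FPKM in mip40 RNAi, against 26.5 and 26.5 in mip130 RNAi and 5.12 and 4.05 in GFP cells, so both knockdowns lay above GFP cells, and it was not called without any 1 of the 4 libraries (limma adjusted p from 0.094 to 0.12). Aldolase (Ald) stood at 145 and 146 FPKM in mip40 RNAi, against 191 and 196 in mip130 RNAi and 138 and 139 in GFP cells (-0.41 ± 0.05, limma adjusted p = 0.0072, and 0.060 without mip130 replicate 2). Of 33 proteasome genes, 9 were lower (27.3%) and 3 were higher (9.09%), with a median of -0.08. The core subunit gene Pros35 stood at 102 and 122 FPKM in mip40 RNAi, against 166 and 184 in mip130 RNAi, with a limma adjusted p of 0.061 without mip40 replicate 1. Without mip130 replicate 2 neither list had a call, and without mip40 replicate 1 there were 2 lower glycolysis genes and 1 lower proteasome gene. Without mip40 replicate 2 the counts of lower genes were 2 and 6, and without mip130 replicate 1 they were 2 in each list.

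Markers and pathways of differentiated cells gave the following counts. Of 25 hemocyte markers tested, 7 were higher in mip40 RNAi (srp, ush, Pvr, LanB1, LanB2, Glt and Tig, 28% against 12.7% of all genes) and 2 were lower (crq and nimC4), with a median of 0.18, although the difference of srp was -0.19 on transcripts of known structure alone. The scavenger receptor gene crq stood at 131 and 134 FPKM in mip40 RNAi, against 177 and 190 in mip130 RNAi, and the laminin gene LanB2 at 216 and 206, against 153 and 153. No hemocyte marker was called without mip130 replicate 2, and 1, 4 and 2 were higher without mip40 replicates 1 and 2 and mip130 replicate 1, in that order. Without mip40 replicate 1 the limma adjusted p was 0.063 for crq and 0.052 for LanB2. Of 20 neuronal markers 7 were tested and 3 were higher (Syx1A, elav and fne, 42.9% against 12.7% of all genes). elav, the RNA-binding protein of neurons, stood at 40.6 and 35.6 FPKM in mip40 RNAi, against 25.7 and 23.4 in mip130 RNAi and 26.2 and 32.7 in GFP cells, and was not called without mip40 replicate 1 (limma adjusted p = 0.080) or mip130 replicate 2 (0.092). elav overlaps arg and lncRNA:enrr in the reference annotation, and reads of overlapping genes may not be told apart. Among muscle markers Tm1 was higher out of 5 tested, and among ovarian follicle markers fs(1)Yb was lower out of 3. No fat body marker was called of 3 tested.

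**Figure D5:**
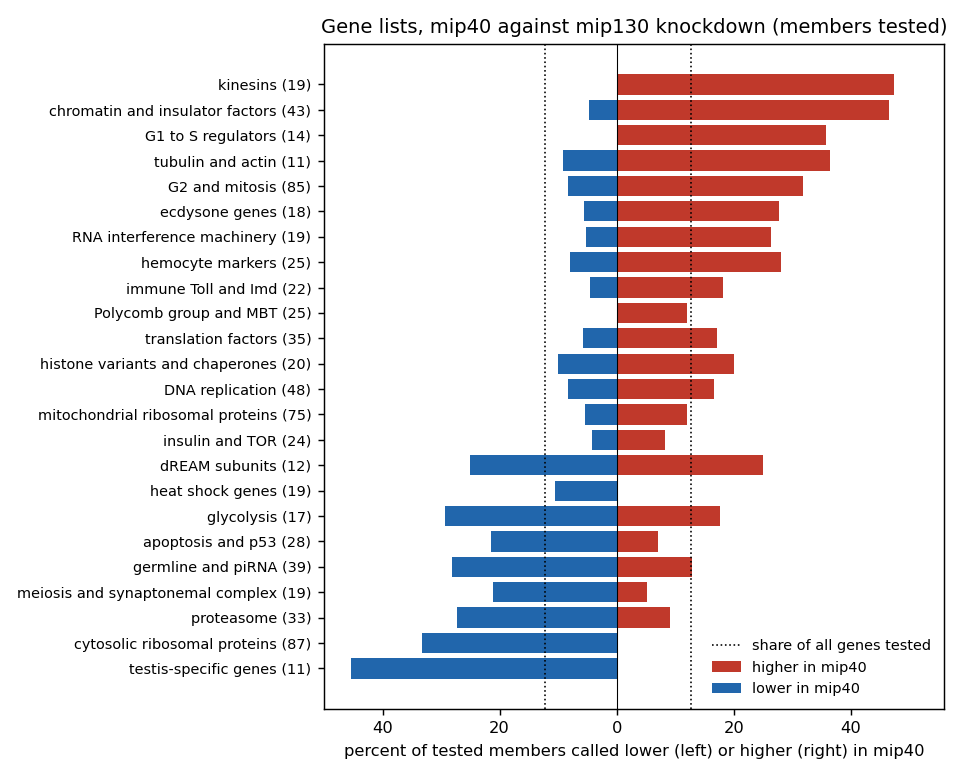
Percent of the tested members of each gene list that were lower (bars to the left) or higher (bars to the right) in mip40 RNAi, for lists with at least 10 members tested, with the number tested in brackets and dotted lines at the 12.3% lower and 12.7% higher of all genes tested. Kinesins and chromatin factors lie farthest to the right, and cytosolic ribosomal proteins and testis-specific genes farthest to the left. Nothing is read from the testis-specific bar, since a gene could pass the filter by being high in the mip130 libraries alone.

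The remaining lists are given by their counts, to be read against 12.7% higher and 12.3% lower of all genes. Of 22 Toll and Imd immunity genes, 4 were higher in mip40 RNAi (spz, imd, Rel and tub, 18.2%) and 1, the antimicrobial peptide gene CecA1, was lower. Of 18 ecdysone genes, 5 were higher (EcR, Eip75B, Sgs1, br and tai, 27.8%) and 1, Eip71CD, was lower. The receptor gene EcR stood at 90.0 and 75.5 FPKM in mip40 RNAi, against 47.8 and 50.6 in mip130 RNAi, with a difference of -0.06 on transcripts of known structure alone (-0.05 for tai) and a limma adjusted p between 0.055 and 0.069 without mip40 replicate 1 or either mip130 library. Of 19 RNA interference genes, 5 were higher (AGO1, Fmr1, armi, gw and vig, 26.3%) and 1, spn-E, was lower. spn-E, a helicase of the piRNA pathway, stood at 17.0 and 17.1 FPKM in mip40 RNAi, against 24.4 and 26 in mip130 RNAi and 8.54 and 8.12 in GFP cells, and was not called on transcripts of known structure alone. Of 35 translation factor genes 6 were higher (17.1%) and 2 were lower, of 24 insulin and TOR genes 2 were higher and 1 was lower, of 19 heat shock genes 2 were lower, and of 11 tubulin and actin genes 4 were higher (36.4%) and 1, Arp53D, was lower. Of 20 genes for histone variants and chaperones, 4 were higher (20%) and 2, CG3509 and Hira, were lower. Without mip40 replicate 1 or mip130 replicate 2 none of these lists had a higher call other than that of tubulin and actin genes, which had 3 and 1.

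The direction of the calls moved with the level of expression. Among 250 genes with a mean under 1 FPKM over the 4 libraries, 0.8% were higher in mip40 RNAi and 8.4% were lower, and between 1 and 10 FPKM the shares were 4.36% and 12.3%. Between 10 and 100 FPKM, which held 4493 genes, they were 15.1% and 12.6%, between 100 and 1000 FPKM 21.3% and 11.1%, and in the 97 genes from 1000 FPKM upwards 22.7% and 16.5%. More genes were thus called lower than higher below 10 FPKM, and more higher than lower above, although the median difference from 1000 FPKM upwards was -0.08. On the X chromosome 16.0% of 1349 genes were higher and 11.6% were lower, and on chromosome 2R 10.9% of 1602 genes were higher and 13.3% were lower.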

How the data were processed

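The submitters' processing notes name TopHat2 2.0.12, Bowtie 1.1.1, Cuffnorm and Cufflinks. No source used here gives the build, annotation release or strand setting. The authors deposited FPKM values for 37161 transcripts, with scaling between libraries as deposited. No count test was run. FPKM were summed per gene over known transcripts, new isoforms and other overlapping transcripts (15021 genes). A gene was tested if 2 or more of the 9 libraries reached an FPKM of 1 (7835 genes, 184 of them small RNAs).

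Values of log2(FPKM + 1) were fitted with limma 3.58.1 (R 4.3.3). The 9 libraries shared a model of 5 group means, with a variance trend on intensity and Benjamini-Hochberg adjustment (threshold 0.05). The fit was also run on simulated data as a check of the code, and nothing is read from that run. Differences are mip40 RNAi minus mip130 RNAi ± SE, and understate the change of low genes. With 2 libraries against 2, no exact permutation test of a single gene can pass 0.05.

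The members and gene lists were chosen with earlier results of these data known. Named genes are the 12 dREAM subunits, the 10 largest non-overlapping calls in each direction without small RNAs and up to 4 called members of each list, by size of difference, with others marked as picked after their values were seen or given as members of a count. One gene of the meiosis list is not reported here. Positions are the table's. The reference tables held 11618 of the gene symbols as current and 3141 as older names, 262 had no match, and 3 list entries that had matched a wrong gene were removed. Overlaps of genes were read from Release 6. Not every overlap is named, and Hexim, p53, Klp67A, Klp61F and Myb are among others that overlap further genes. The alternatives were other pseudocounts (0.1 and 4), filters, scalings, transcript classes, a fit without the trend, only the 4 libraries, a replicate block and leaving out each library but the single E2F2 one.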

Additional observations from a re-analysis of the deposited data

How the results depend on the processing

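Of 116 named genes 110 were called, and 34 of them were called under every alternative. The count of 1956 calls was 1292 with no filter on low values (607 higher in mip40 RNAi), 1033 when only the 4 mip40 and mip130 libraries were fitted (497 higher and 536 lower), and 40 genes were lower by at least 1 with a pseudocount of 4, against 126. When each library other than the single E2F2 one was left out in turn, calls ran from 198 to 1889, higher calls from 71 to 950, lower calls from 127 to 939, genes higher by at least 1 from 25 to 49 and genes lower by at least 1 from 80 to 123. A larger pseudocount shrinks differences of low genes by construction, and the other fits held more genes or fewer samples.

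Signs turned for 3 genes that were not called with all transcripts. Over the same fits mip120 ran from -0.0152 to 0.174, Dp from -0.0614 to 0.0447 and lin-52 from -0.187 to 0.0171, and Dp was 0.24 on known transcripts alone, a call in that fit (limma adjusted p = 0.035). On known transcripts alone they also turned for stg (-0.63), ncd (-0.0341), mor (-0.0471), bgcn (-0.0945), srp (-0.19), EcR (-0.0647) and Rpn2 (-0.12), and for tai (-0.0488) and osk (0.27, against -0.81).

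The replicate numbers were not shown to pair the samples, since the deviations of same-numbered mip40 and mip130 libraries correlated at -0.135. With the replicate number as a block, 1272 genes were called (610 higher and 662 lower). With the pairing crossed, an alternative chosen after seeing the data, 1614 were called. Unknown depth limits what can be said of genes under 1 FPKM.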
